A study of Rattus norvegicus with 8 samples.

Results

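The 10 genes described here are a set of immediate early genes: the transcription factors Fos, Fosb, Junb, Egr1, Egr2, Egr4, Nr4a1 and Nr4a3, the nuclear regulator Ier2, and Arc, which encodes a protein of synapses. They were chosen by gene symbol, as every probe set (the group of probes that reports a transcript) whose only symbol in the platform annotation is one of these genes. They are 10 of 14217 genes named in that way, and have 15 of the 31042 probe sets of the array that are not controls. The tissue was CA1 or CA3, 2 fields of pyramidal neurons, cut out of rat hippocampal slices that had been maintained in culture. Each field had 3 control arrays and 1 lesion array, each made at 7 days from total RNA of 15 pooled cultures. The labels give no strain, age, genotype or agent, do not say what the lesion was or from which event the days were counted, and state no aim. They also do not say whether different pools had different animals as their source. The p-values therefore measure only how far these arrays spread, which may be technical. Each lesion group is a lone pool with no replicate.

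Immediate early genes are transcribed within minutes of a stimulus without the need for new protein. In neurons the stimulus is usually synaptic activity and calcium entry, and in glia and other cells it can be growth factors, injury or inflammatory signals. The signal reaches preformed factors on the promoter, mainly serum response factor on the CArG box and CREB on the cyclic AMP response element (CRE). The messages are short-lived, so their level at the time of harvest follows recent stimulation, and in hippocampus Fos, Egr1 and Arc are widely used to mark recently active neurons.

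Promoter windows of 250 bases before to 50 bases after the annotated start were held by the RefSeq table (rat assembly GRCr8) for 7 of the 10 genes, all but Fos, Arc and Nr4a3. Of these, 5 are printed because they show the kinds of element that the genes share and where they differ. Capitals mark CArG boxes, the full CRE TGACGTCA and its core TGACG, searched on both strands, so that the core also reads CGTCA and lies inside the full CRE. Egr1 lies at chr18:26736828-26737127 on the + strand, Egr2 at chr20:21054392-21054691 on the - strand, Nr4a1 at chr7:134259888-134260187 on the + strand, Ier2 at chr19:40399123-40399422 on the + strand and Junb at chr19:40080876-40081175 on the + strand. All are written 5′ to 3′ along the gene.
Egr1: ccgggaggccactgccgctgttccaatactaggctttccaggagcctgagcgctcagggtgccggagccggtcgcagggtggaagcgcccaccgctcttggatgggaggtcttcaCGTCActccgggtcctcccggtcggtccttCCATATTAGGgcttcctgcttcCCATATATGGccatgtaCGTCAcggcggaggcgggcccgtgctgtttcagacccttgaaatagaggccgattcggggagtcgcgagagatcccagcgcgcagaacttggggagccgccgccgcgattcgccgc
Egr2: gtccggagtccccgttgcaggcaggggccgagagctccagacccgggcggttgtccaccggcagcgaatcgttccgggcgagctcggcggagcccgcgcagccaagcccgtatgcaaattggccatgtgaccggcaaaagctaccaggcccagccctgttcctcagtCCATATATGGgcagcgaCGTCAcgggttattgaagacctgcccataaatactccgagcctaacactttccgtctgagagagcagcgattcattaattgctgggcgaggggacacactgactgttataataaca
Nr4a1: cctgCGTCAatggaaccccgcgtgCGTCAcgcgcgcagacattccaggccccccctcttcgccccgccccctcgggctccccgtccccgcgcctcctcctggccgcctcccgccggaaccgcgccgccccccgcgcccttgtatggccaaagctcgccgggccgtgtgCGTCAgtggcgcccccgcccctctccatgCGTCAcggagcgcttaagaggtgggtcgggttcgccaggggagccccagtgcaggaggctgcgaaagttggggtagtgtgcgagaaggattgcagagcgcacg
Ier2: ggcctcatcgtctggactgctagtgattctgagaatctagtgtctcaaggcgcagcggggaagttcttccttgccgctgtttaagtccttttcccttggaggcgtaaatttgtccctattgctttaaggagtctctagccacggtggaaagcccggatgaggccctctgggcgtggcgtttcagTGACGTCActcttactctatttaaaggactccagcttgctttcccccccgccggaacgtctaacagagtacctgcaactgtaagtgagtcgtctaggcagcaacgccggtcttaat
Junb: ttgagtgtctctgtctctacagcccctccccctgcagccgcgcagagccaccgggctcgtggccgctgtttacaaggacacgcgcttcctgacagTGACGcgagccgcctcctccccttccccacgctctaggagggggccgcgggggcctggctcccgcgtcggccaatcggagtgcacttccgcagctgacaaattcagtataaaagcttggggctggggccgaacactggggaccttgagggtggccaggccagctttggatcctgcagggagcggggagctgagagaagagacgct

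The CArG box was searched as CC, then 6 bases that are each A or T, then GG, and near matches were not counted. It was found in 2 of the 7 windows, those of Egr1 and Egr2, against 1.64% of 33465 promoter windows of the same length. Egr1 held 2, CCATATTAGG and CCATATATGG, and Egr2 held CCATATATGG, with its first base 83 bases before the start, as for the second box of Egr1. The CRE core was found in 6 of 7 windows, all but that of Fosb, against 21.2% of all windows, and 4 of 7 held 2 or more cores, against 4.96%. Nr4a1 held 4 cores. The full CRE was found only in Ier2 among the 7 windows (1.83% of all windows), where its 2 overlapping cores are the window's only ones. The windows of Egr1 and Egr2 held a CArG box together with a CRE core, as did 0.272% of all windows. Of the other motifs searched, the EGR site GCGTGGGCG or GCGGGGGCG was found in Nr4a1 (3.2% of all windows) and the AP-1 site TGANTCA in 0 of 7 (7.33%). The TATA box letters TATAAA, searched on both strands, were found in Fosb and Junb (14.2%). In Junb they lay on the strand of the gene, 49 to 44 bases before the start. In Fosb they lay on the opposite strand, as TTTATA, 180 to 175 bases before the start. A match describes letters in this window, not a site in use.

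**Figure D1:**
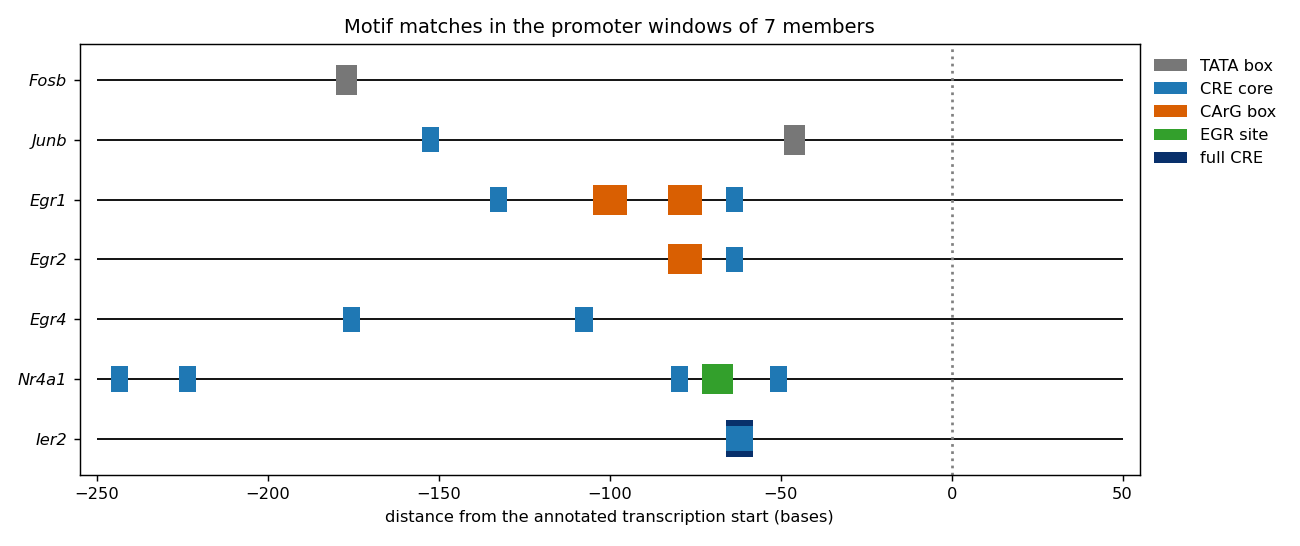
Motif matches in the promoter windows of the 7 genes with a sequence, drawn to scale against the distance in bases from the annotated start (dotted line). Egr1 and Egr2 hold a CArG box with its first base 83 bases before the start, and Nr4a1 holds 4 CRE cores.

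Median intensity was between 560 and 814 in the 8 arrays. All 6 measured CA1 markers were lower in CA3 controls (median log2 difference -2.99) and 5 of 6 CA3 markers were higher (1.65), as the field labels have it. The controls carrying the number 3 in the labels had the most signal from microglia and myelin genes of the controls in each field, and the least from neuronal genes. Both lesion arrays carry the number 1 in the labels, as control 1 of each field does. What the number marks is not stated. Of the 10 microglia markers tested, 8 passed as higher in control 3 than in control 1 (median 2.98, limma adjusted p under 0.05), and 2 as higher in control 2 than in control 1 (median 1.1). For the 8 myelin genes the step from control 1 to control 2 (median 1.89, 4 passing) was larger than that from control 2 to control 3 (1.27, 5 passing). Lesion and field results are given without these arrays beside the main values for the member medians, the members with the largest differences and the list medians. The 3′/5′ ratio of the Gapdh control probes, which rises as RNA degrades, was 5.0 in CA1 control 3 and 3.93 in CA3 control 3, against 3.71 and 4.98 in the other CA1 controls and 3.84 and 3.75 in the other CA3 controls. The lesion arrays had 4.65 (CA1) and 5.23 (CA3), the latter above all CA3 controls. The Actb ratio had another order, at 14.5, 22.2 and 18.3 in CA1 controls 1 to 3 and 17.3 in the CA1 lesion array. It was at 21.4, 20.3 and 15.0 in CA3 controls and 19.8 in the CA3 lesion array. The 3′ probes thus gave the stronger signal in every array, 3.71-fold or more for Gapdh and 14.5-fold or more for Actb.

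The AP-1 factors Fos, Fosb and Junb pair as leucine zipper proteins and bind the same DNA element as dimers. Fos had deposited intensities of 14178, 9386 and 19129 in CA1 controls 1 to 3 and 12614 in the CA1 lesion array. In CA3 it had 8294, 10239 and 24692 in the controls and 7267 in the lesion array. Control 3 was the highest in each field, and only the CA3 lesion array lay below all its controls. Fosb had 681, 1127 and 2262 in CA1 controls and 622 in the CA1 lesion array. In CA3 it had 82.4, 65.4 and 2763 in the controls and 317 in the lesion array, so that CA3 control 3 alone reached the level of the CA1 controls. Its range over the 8 arrays was 5.09 log2 units, the widest of the 10 genes. Junb, which can restrain as well as drive AP-1 targets, had 2284, 2252 and 3500 in CA1 controls and 445 in the CA1 lesion array. The CA3 values were 2146, 1413 and 1770 in the controls and 1633 in the lesion array. The CA1 lesion array was thus the lowest of the 8 for Junb, while the CA3 lesion array lay among its controls.

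Egr1, Egr2 and Egr4 are zinc finger factors of a family that binds GC-rich sites, and Egr1 and Egr2 are also induced in glia and immune cells. Egr1 had 6642, 5756 and 9291 in CA1 controls and 4362 in the CA1 lesion array. In CA3 it had 4948, 3507 and 7530 in the controls and 2559 in the lesion array. Each lesion array was the lowest of its field and each control 3 the highest. Egr2 had 1873, 2394 and 8767 in CA1 controls and 2214 in the CA1 lesion array. The CA3 values were 2694, 1508 and 6914 in the controls and 1447 in the lesion array. The pair of control 3 arrays lay far above the other 6, which ran from 1447 to 2694. Egr4 had 1431, 730 and 2380 in CA1 controls and 1179 in the CA1 lesion array. Its CA3 intensities were 1080, 559 and 1448 in the controls and 86.3 in the lesion array, which was far below every other array.

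Nr4a1 and Nr4a3 are orphan nuclear receptors that act without a known hormone. Nr4a1 had 1049, 1850 and 2974 in CA1 controls and 720 in the CA1 lesion array. The CA3 values were 820, 489 and 2238 in the controls and 1544 in the lesion array, which lay among them. Nr4a3 had 4447, 5162 and 4824 in CA1 controls and 3862 in the CA1 lesion array by its brightest probe set. Its CA3 intensities were 11694, 12063 and 9875 in the controls and 6556 in the lesion array. By this probe set all CA3 arrays lay above all CA1 arrays. Unlike most of the set, Nr4a3 was by this measure not highest in control 3 of either field. In its other tested probe set (1369067_at) the CA3 lesion array (1182) lay below CA1 controls 2 and 3 (1600 and 2798). There CA1 control 3 was the highest CA1 array. Arc protein acts at the synapse in the removal of AMPA receptors. Arc had 2119, 1581 and 3408 in CA1 controls and 1417 in the CA1 lesion array. In CA3 it had 1541, 757 and 1548 in the controls and 1854 in the lesion array. The CA1 lesion array lay below its controls and the CA3 lesion array above its own. Ier2 had 1573, 1157 and 2903 in CA1 controls and 1944 in the CA1 lesion array. Its CA3 intensities were 1414, 1466 and 2347 in the controls and 1389 in the lesion array, and its range over the 8 arrays, 1.32 log2 units, was the narrowest of the 10.

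**Figure D2:**
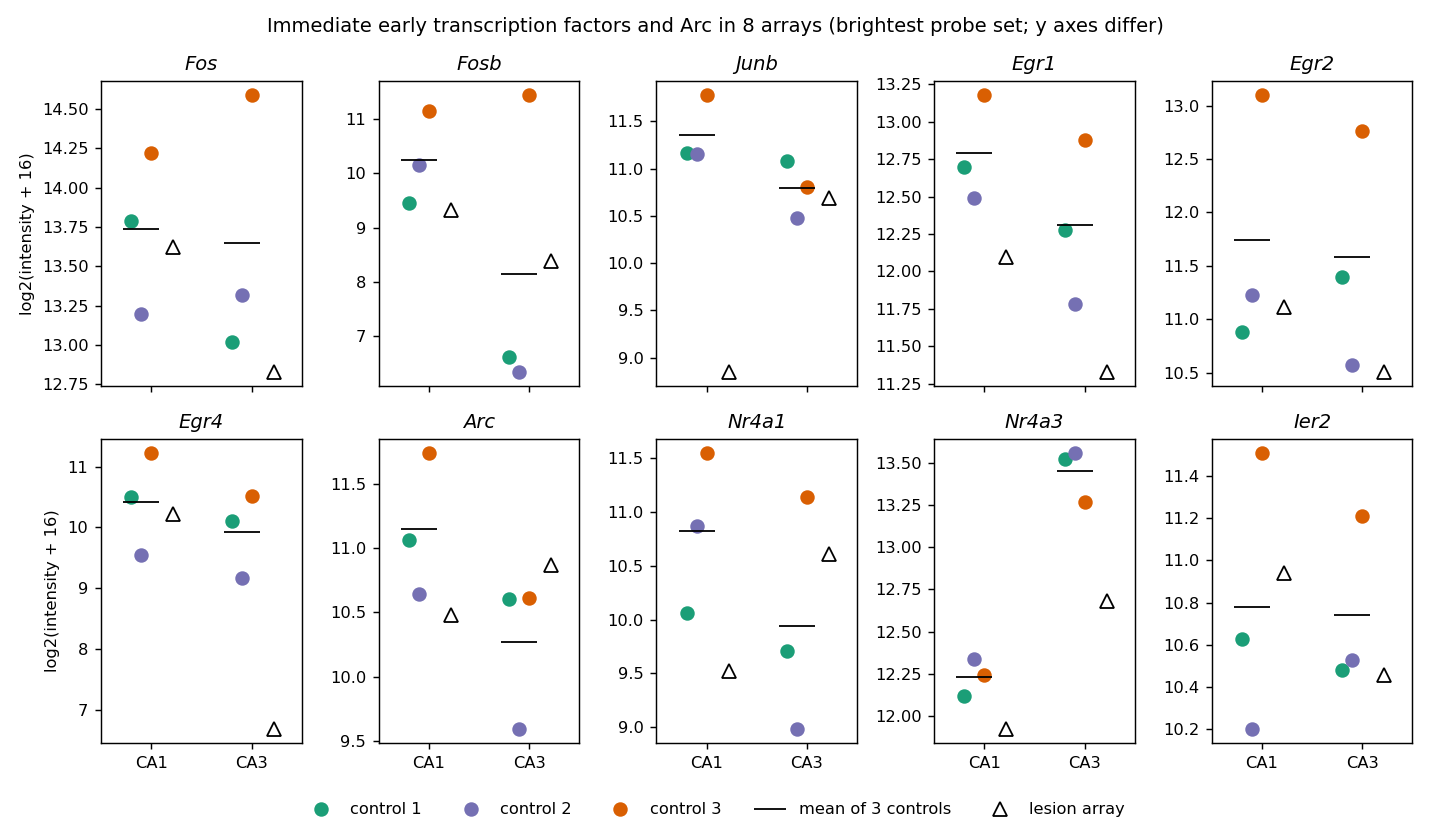
Log2(intensity + 16) of the brightest probe set of each gene, with control arrays as circles coloured by their number, their mean as a line and the lesion array as a triangle, in CA1 and CA3; the y axes differ between panels. Control 3 is the highest control in both fields for 8 of the 10 genes, and Nr4a3 is higher in all CA3 arrays than in all CA1 arrays.

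Intensities were compared as log2(value + 16), so fold changes understate the change of dim probe sets. A linear model was fitted with limma to the 18625 probe sets at or above the 40th percentile of mean signal, and p-values were adjusted over all of them. The brightest probe set of each of the 10 genes passed this filter, as did a further probe set of Nr4a3, which makes 11. The other 4 probe sets of the genes were below it and were not tested. In these the order of the arrays could differ. The dim Egr4 probe set (1375784_at) was at 976, 118 and 113 in CA1 controls and 55.8 in the CA1 lesion array. It was at 77.3, 242 and 153 in CA3 controls and 554 in the CA3 lesion array, above all CA3 controls where the bright Egr4 probe set was below them. The dim Egr2 probe set (1398266_a_at) was likewise above all CA3 controls in the CA3 lesion array, at 208 against 22.6 to 88.1. The dim Fos probe set (1371283_at) peaked in CA1 control 2 at 744, and the dim Nr4a3 probe set (1369217_at) ran from 85.3 in CA1 control 3 to 831 in CA3 control 1.

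Among the controls, most of these genes were highest in the arrays numbered 3. By the brightest probe set of each gene, control 3 was the highest control for 9 of 10 genes in CA1 (34.0% of all probe sets tested). It was so for 8 of 10 in CA3 (33.6%) and for 8 of 10 in both fields (17.1%). The exceptions in CA3 were Junb and Nr4a3, and in CA1 Nr4a3, and for Arc in CA3 the margin over control 1 was 0.01 log2 units. Over all 8 arrays, a control 3 array held the highest value for 9 of the 10 genes by these probe sets. The dim probe sets, which were not tested, mostly went another way. Those of Fos, Egr4 and Nr4a3 (1369217_at) were highest in control 3 in neither field. The dim Egr2 probe set (1398266_a_at) was lowest in control 3 in CA1 (225, 41.7 and 26.5 in controls 1 to 3). In CA3 it was highest there (53.5, 22.6 and 88.1). Fos and Egr2 differed between control numbers in a fit to the 6 controls with field as a term (2 of 11 probe sets, against 2.49% of all tested). Egr2 was 3.45-fold higher in control 3 than in control 1 (log2 difference 1.79 ± 0.29, SE, 2 arrays per number, limma adjusted p = 0.0046) and 4.07-fold higher than in control 2 (2.03 ± 0.29, limma adjusted p = 0.00412). Fos was 2.0-fold higher than in control 1 (1.0 ± 0.23, limma adjusted p = 0.0325) and 2.21-fold higher than in control 2 (1.15 ± 0.23, limma adjusted p = 0.0342). These 2 were also the only member probe sets called in each of these comparisons, in which 4.51% and 1.18% of all probe sets were called. The Egr2 probe set called (1387306_a_at) is among those classed here as possibly cross-hybridising.

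The other genes did not pass in this fit. Fosb had the largest difference, 3.26 ± 0.89 against control 1 (limma adjusted p = 0.0633), which was 1.71 in CA1 and 4.82 in CA3. Nr4a1 had 1.46 ± 0.43 (limma adjusted p = 0.0881), at 1.49 in CA1 and 1.43 in CA3. Against control 2, Fosb had 3.04 and Nr4a1 1.42. Egr1 had 0.54 against control 1 (limma adjusted p = 0.173) and 0.89 against control 2 (0.0545), and Egr4 had 0.57 (0.511) and 1.52 (0.0982). Arc had 0.34 (limma adjusted p = 0.663) and 1.06 (0.188), and Ier2 had 0.8 (0.217) and 0.99 (0.205). Junb had 0.17 (limma adjusted p = 0.835) and 0.48 (0.574), and Nr4a3 -0.06 (0.91) and -0.19 (0.743). The median over the 10 genes was 0.69 against control 1 and 1.1 against control 2, where that of all probe sets was -0.01 and -0.02. With CA1 control 3 left out, the difference from control 1 was 1.35 for Fos and 1.65 for Egr2. With CA3 control 3 left out it was 0.66 for Fos and 1.92 for Egr2. Neither gene was called in these fits, which hold a lone control 3 array. Calls over all probe sets also fell in them, and what led to the loss for these 2 genes was not tested. Fos against control 1 also lost its call without CA3 control 1 (0.49, limma adjusted p = 0.122), and Fos against control 2 without CA1 control 2 (0.98, 0.101). For control number, 6 member probe sets were called without CA1 control 1, where 1863 of all 18625 probe sets were called in place of 464, and 6 without CA3 control 1 (2046 of all). There were 4 without CA1 control 2 (851 of all) and 4 without CA3 control 2 (1014). With the mean over each gene's probe sets, Egr2 was at 0.41 against control 1 (limma adjusted p = 0.841) and 1.26 against control 2 (0.537). Fos was then at 0.89 (limma adjusted p = 0.237) and 0.08 (0.963).

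Glial and neuronal signal moved with the same arrays. The microglia list (12 of 12 with a probe set, 10 tested) had summed intensities of 7175 to 102482 in CA1 controls and 6938 to 85251 in CA3 controls. The lesion arrays had 145818 (CA1) and 103856 (CA3). Relative to the mean of the 8 arrays, its median was 1.35 and 1.32 log2 units in CA1 and CA3 control 3, and 2.14 and 1.7 in the lesion arrays. The immediate early genes stood at 1.04 and 0.67 in the control 3 arrays, and at -0.23 and -0.51 in the lesion arrays. The myelin list (8 tested) was at 1.12 and 1.1 in the control 3 arrays and at 1.31 and 1.22 in the lesion arrays. The microglia and myelin lists were thus high in the control 3 arrays and in the lesion arrays, while the immediate early genes were highest in the control 3 arrays. In the other controls they stood at 0.28 and -0.13 in CA1 and at -0.08 and -0.57 in CA3, so that the CA3 lesion array lay within the range of its controls. The pan-neuronal list (12 of 12 tested) was at -0.51 and -0.04 in the control 3 arrays, the lowest control of each field, and at -0.49 and 0.0 in the lesion arrays. The lowest summed intensity in any array was 6938 for the microglia list, 62383 for the myelin list and 288697 for the pan-neuronal list. In RNA from whole tissue, fewer cells of a type and less RNA per cell cannot be told apart, and the part of cell content in the levels of the immediate early genes was not tested.

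**Figure D3:**
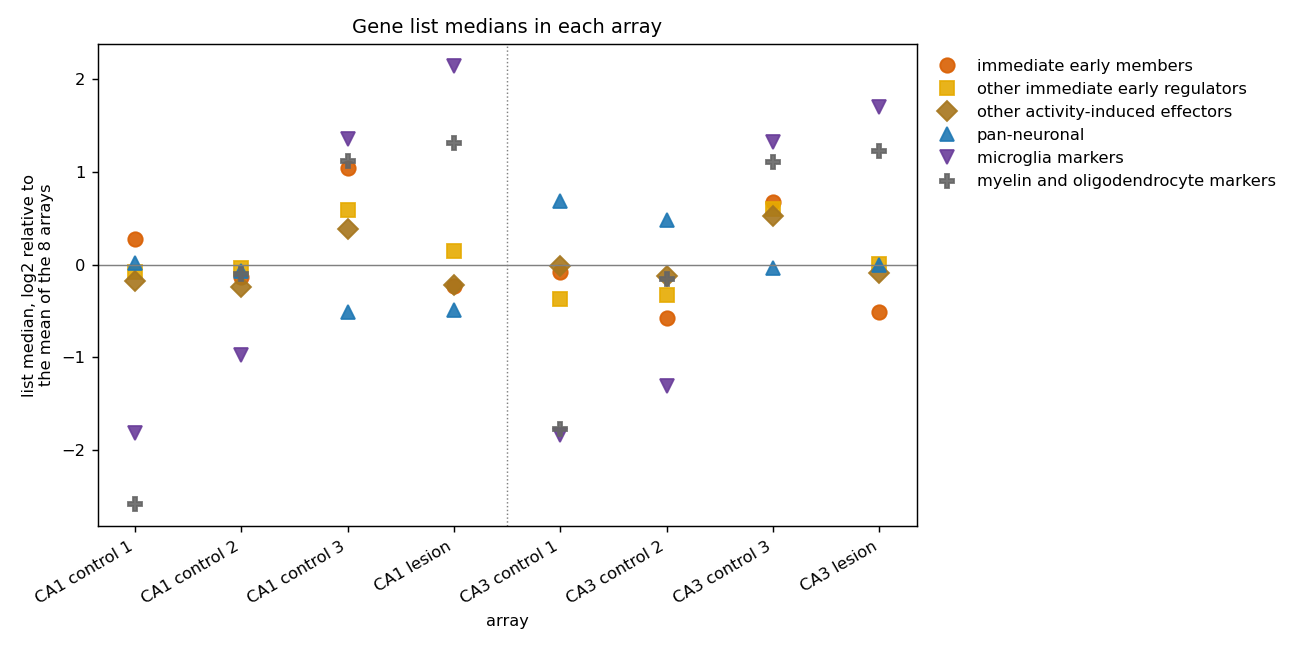
Median log2 level of 6 gene lists in each of the 8 arrays, relative to the mean of the 8 arrays, with CA1 on the left and CA3 on the right of the dotted line. Microglia markers are high in control 3 and lesion arrays of both fields, whereas the immediate early genes are at 1.04 and 0.67 in control 3 and at -0.23 and -0.51 in the lesion arrays.

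In the comparison of the fields, Nr4a3 was the only one of these genes to pass. It was 2.32-fold higher in CA3 than in CA1 controls, at 13.45 ± 0.16 against 12.23 ± 0.11 log2 units (SD, n = 3 arrays per field), a difference of 1.21 ± 0.18 (SE, limma adjusted p = 0.0158). That is 1 of 11 member probe sets called, against 0.526% of all tested. Its other tested probe set (1369067_at) was at 1085, 1600 and 2798 in CA1 controls and 3642, 2997 and 2901 in CA3 controls. This also left no overlap, with a difference of 0.89 ± 0.34 (limma adjusted p = 0.521). In the dim Nr4a3 probe set (1369217_at), which was not tested, the controls of the fields overlapped. The call on the brightest probe set held without CA1 control 3 (1.22, limma adjusted p = 0.046), without CA3 control 3 (1.3, limma adjusted p = 0.0259) and without the 2 together (1.31, limma adjusted p = 0.0352). It was lost without CA1 control 1 (1.16, limma adjusted p = 0.0687), CA1 control 2 (1.27, 0.0875), CA3 control 1 (1.18, 0.0956) or CA3 control 2 (1.16, 0.138). It was also lost with all probe sets of the gene averaged (1.23, 0.141) or without an intensity trend in the variances (1.21, 0.188).

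The other 9 genes had lower means in CA3 than in CA1 controls, where 54.5% of all probe sets were lower, and none of them passed. The median over the 10 genes was -0.49 and that of all probe sets -0.04. Arc (-0.88 ± 0.38, SE, limma adjusted p = 0.587) and Junb (-0.58 ± 0.29, limma adjusted p = 0.641) were lower in all CA3 controls than in any CA1 control. With Nr4a3 this makes 3 of 10 genes without overlap between the fields, against 14.9% of all probe sets. Fosb had a larger mean difference, -2.12 ± 1.19 (limma adjusted p = 0.678), with overlapping groups, since CA3 control 3 was above every CA1 control. Egr1 (-0.48), Egr4 (-0.5), Nr4a1 (-0.88), Egr2 (-0.16), Fos (-0.09) and Ier2 (-0.04) overlapped. Single arrays moved this median: it was -0.16 without CA3 control 2 and -0.19 without CA1 control 3, each with 6 of 10 genes lower, and -0.76 without CA3 control 3. Without control 3 of both fields it was -0.38, with 8 of 10 lower. The pan-neuronal markers were higher in CA3 controls for 12 of 12 genes (median 0.51), the opposite direction to these 9 genes.

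The CA1 lesion array lay below all 3 of its controls for 6 of 10 genes, against 24.8% of all probe sets, and above all of them for none. These were Fosb, Junb, Egr1, Arc, Nr4a1 and Nr4a3. Junb differed most, at 5.72-fold lower than the control mean (-2.52 ± 0.41, SE, 1 array against 3, limma adjusted p = 0.361). It was at -2.32, -2.3 and -2.93 log2 units against controls 1 to 3, and the difference was -2.31 without control 3 of both fields. Nr4a1 was at -0.53, -1.34 and -2.02 against controls 1 to 3, Fosb at -0.13, -0.84 and -1.84, Egr1 at -0.6, -0.4 and -1.09, and Arc at -0.58, -0.16 and -1.26. Nr4a3 was at -0.2, -0.42 and -0.32, and Fos, Egr2, Egr4 and Ier2 lay among their controls. Over the 10 genes 9 differences were below 0, against 49.3% of all probe sets, with a median of -0.64. In limma 0 of 11 member probe sets passed, as did 0.0% of all tested. At an unadjusted p under 0.05 there was 1 of 10 genes, Junb, against 3.63% of all probe sets.

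The CA3 lesion array lay below all 3 of its controls for 6 of 10 genes as well, against 24.8% of all probe sets, but the genes were partly others: Fos, Egr1, Egr2, Egr4, Nr4a3 and Ier2. It lay above all of them for Arc, against 29.7% of all probe sets. Egr4 differed most, at 9.52-fold lower than the control mean (-3.25 ± 0.74, SE, 1 array against 3, limma adjusted p = 0.421), and was at -3.42, -2.49 and -3.84 against controls 1 to 3. The Egr4 difference was -2.96 without control 3 of both fields. The dim Egr4 probe set (1375784_at), which was not tested, went the other way, at 2.61, 1.15 and 1.76 against controls 1 to 3. Nr4a3 was at -0.83, -0.88 and -0.59, and its other tested probe set at -1.61, -1.33 and -1.28. Egr1 was at -0.95, -0.45 and -1.55, Egr2 at -0.89, -0.06 and -2.24, and Fos at -0.19, -0.49 and -1.76. Ier2 was nearly level with controls 1 and 2, at -0.03, -0.08 and -0.75. Fosb and Nr4a1 were above controls 1 and 2 and below control 3, at 1.76, 2.03 and -3.06 for Fosb and 0.9, 1.63 and -0.53 for Nr4a1. In limma 0 of 11 member probe sets passed, as did 0.0% of all tested, and 7 of 10 genes were below 0 (45.5% of all), with a median of -0.53. At an unadjusted p under 0.05 there were 3 of 10 genes, Egr1, Egr4 and Nr4a3, against 4.68% of all probe sets.

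**Figure D4:**
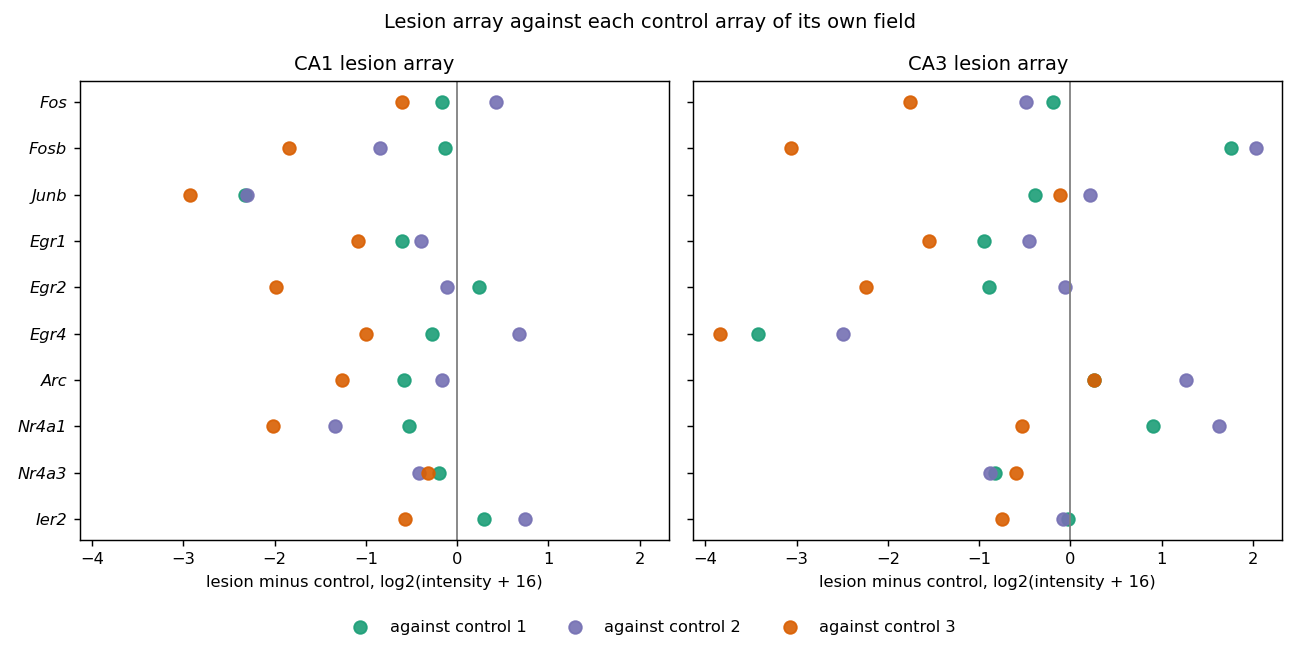
Difference in log2(intensity + 16) between the lesion array and each control array of its own field, for the brightest probe set of each gene, in CA1 (left) and CA3 (right). Junb is lower by more than 2 log2 units against each CA1 control and Egr4 against each CA3 control, and differences from control 3 are the most negative for most genes.

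The size of the lesion difference depended on the control. By the labels, control 1 is the control that shares its number with the lesion arrays. The median of the 10 genes was -0.24 against CA1 control 1, -0.28 against control 2 and -1.18 against control 3. In CA3 it was -0.29, -0.07 and -1.15. Without control 3 of both fields the median against the control mean was -0.34 in CA1, with 6 of 10 genes below 0, and -0.22 in CA3, with 7 of 10. All 10 genes were lower than control 3 in CA1 and 9 of 10 in CA3, the exception being Arc. Control 3 was itself the highest control for 9 of them in CA1 and 8 in CA3. The share of all probe sets lower than control 3 was not computed. Egr1 and Nr4a3 alone lay below all controls in both fields, 2 of 10 genes against 8.03% of all probe sets. In the mean of the lesion effects all 10 genes were below 0 (47.8% of all probe sets were), with a median of -0.5, against 0.02 over all probe sets. In limma 0 of 11 member probe sets passed for this mean (0.0% of all tested), and Junb, Egr1, Egr4 and Nr4a3 had an unadjusted p under 0.05, 4 of 10 genes against 6.41% of all probe sets. Without control 3 of both fields the median was -0.16 and 6 of 10 were below 0, with Fosb at 0.71, Ier2 at 0.24, Arc at 0.2 and Nr4a1 at 0.16. The 4 genes named before stayed negative without these arrays, with Junb at -1.2, Egr4 at -1.38, Egr1 at -0.6 and Nr4a3 at -0.58. In the lesion arrays the microglia list was higher by a median of 2.6 in the mean of both fields, with 10 of 10 tested genes above 0, and the pan-neuronal list lower by a median of 0.31 (-0.31), with 12 of 12 below 0. These medians were 3.61 and -0.46 without control 3 of both fields. Their part in the lesion differences was not tested.

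The difference between the lesion effects was tested as an interaction term, and 0 of 11 member probe sets passed in limma (0.0% of all tested), with each at an adjusted p of 1.0. At an unadjusted p under 0.05 there were 2 of 10 genes, against 3.09% of all probe sets. Junb had a CA3 lesion effect higher than the CA1 effect by 2.42 ± 0.58 (SE), and Egr4 lower, at -3.05 ± 1.05. Nr4a1 was at 1.96 ± 1.11 and Arc at 1.26 ± 0.76. The values were 2.22 for Junb, -3.16 for Egr4, 2.2 for Nr4a1 and 1.13 for Arc without control 3 of both fields.

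Other genes of the same programme were taken from 3 lists. Of 20 other immediate early regulators, 16 were tested. In control 3 against control 1, 9235 of all 18625 probe sets were above 0 and 534 passed as higher. Of the 16 regulators, 14 were above 0 (median 0.66) and 4 passed in limma. These were the stress-induced factor Atf3 (1.92 ± 0.3, limma adjusted p = 0.00369), the CREB family member Crem (1.38), and the zinc finger factors Klf10 (0.93) and Klf6 (1.22). Against control 2, 14 of 16 were above 0 and 4 passed, Ier3 (1.87), Ier5 (1.12), Atf3 (1.75) and the AP-1 factor Fosl1 (4.02). Of all 18625 probe sets, 9026 were above 0 there and 189 passed as higher. In the mean lesion effect 9 were above 0 and 7 below (median 0.14), where the 10 genes had 0 and 10, and 0 passed in limma, with Klf4 (-1.24) and Jun (-0.38) the 2 at an unadjusted p under 0.05. There were 11 above 0 without control 3 of both fields (median 0.49). For the fields 0 passed, and at an unadjusted p under 0.05 there were 2, Jun, the main partner of Fos (0.63), and Bhlhe40 (-0.87).

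Of 22 effector genes induced by activity, such as growth factors, phosphatases and secreted peptides, 18 were tested. In control 3 against control 1, 14 were above 0 (median 0.72) and 5 passed in limma as higher, against 9235 and 534 of all 18625 probe sets. The 5 were Rgs2 (1.14), the MAP kinase phosphatase Dusp1 (1.74), the activin subunit Inhba (1.58), Gadd45g (1.04) and Gadd45b (1.86). In the mean lesion effect 13 of 18 were below 0 (median -0.19), against 47.8% of all probe sets, and 0 passed. Scg2 (-0.92), Ptgs2 (-1.84), Nrn1 (-0.73) and Bdnf (-0.91) were among the 5 at an unadjusted p under 0.05, against 6.41% of all. Without control 3 of both fields 10 of 18 were below 0 (median -0.13). Between the fields, where 0.526% of all probe sets passed, the kinase Plk2 alone did, lower in CA3 (-1.03, limma adjusted p = 0.0448). The preformed factors and kinases that act upstream (16 of 19 tested) had medians of -0.13 in control 3 against control 1, -0.08 in the mean lesion effect (-0.15 without control 3 of both fields) and -0.18 between the fields. Of these the protein kinase A subunit Prkaca (-1.5) and the CREB relative Atf1 (0.74) passed for control 3 against control 1 and 0 passed for the mean lesion effect or the fields, where 0 and 5 had an unadjusted p under 0.05. The lists share their control arrays between these comparisons.

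The 10 genes were not equally alike over the 8 arrays. By the root mean square difference of their centred log2 values, the closest pairs were Fos and Ier2 (0.31), Fos and Egr1 (0.36) and Egr1 and Ier2 (0.45). The most distant pair was Fosb and Nr4a3 (2.17). Among 10834 other genes, those closest to the mean pattern of the 10 genes were Sertad1, a transcriptional coregulator (0.25), the nuclear import receptor Ipo5 (0.25), the acyltransferase Agpat4 (0.28), the cationic amino acid transporter Slc7a1 (0.28) and Pum3 (0.29), where a flat gene would have 0.59. Sertad1 stood at 0.94 and 0.91 in CA1 and CA3 control 3 and at -0.21 and -0.82 in the lesion arrays. Closest to Fos were Inka2 (0.22), Sertad1 (0.23) and the citrate transporter Slc13a5 (0.27), and closest to Arc were Ppp2r3a (0.16), the protease cathepsin K, Ctsk (0.18), and the cell death gene Bbc3 (0.2). With 8 arrays and this many genes such distances describe these arrays only, the control 3 arrays included, and were not computed without them.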

How the data were processed

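Expression was measured on 8 arrays, grouped by the sample titles. The deposited values are linear signal intensities, 1 per probe set and array. The 2% trimmed mean was between 2459 and 2463 in every array, so the authors' values share a common scale. The authors' software and probe summary are not stated in the labels or file headers. The number of arrays limits the precision. Of 31099 probe sets, 57 controls were removed. Intensities were converted to log2(value + 16), and the 18625 probe sets at or above the 40th percentile of the mean were tested. Probe sets were named by the platform annotation (20832 probe sets with 1 symbol, 436 with several, 9831 with none), and all 10 genes matched RefSeq by gene identifier. The files name no genome build, and coordinates belong to the RefSeq sequences (GRCr8). With limma 3.58.1 (R 4.3.3), the 8 arrays were fitted with a term for each group, an intensity trend, 4 residual degrees of freedom and Benjamini-Hochberg adjustment at 0.05; lesion arrays were assumed to vary like controls. Differences by control number were fitted to the 6 controls with field as a term (2 residual degrees of freedom). All member probe sets are named; a gene is represented by its brightest. From other lists, up to 4 genes with the smallest p and any past the threshold are named. Genes most alike were ranked by root mean square difference. The fit was tested on simulated data with independent noise and no difference by control number, so that test does not cover such differences. Alternatives were pseudocounts of 1 and 64, quantile normalisation, other filters, no trend, a replicate block, averaged probe sets, removal of possibly cross-hybridising probe sets, and arrays left out. List medians without control 3 were added after seeing the data. The genes, lists and tests were chosen with earlier results of these data known.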

Additional observations from a re-analysis of the deposited data

Results flagged for a closer look

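Arc moved in opposite directions in the lesion arrays. The CA1 lesion array was below all 3 of its controls, at -0.58, -0.16 and -1.26, and the CA3 lesion array above all 3 of its own, at 0.26, 1.27 and 0.26. The difference between the lesion effects, CA3 minus CA1, was 1.26 ± 0.76 (SE, 1 lesion array per field) and did not pass in limma (adjusted p = 1.0 in the fit across all probe sets). Over 17 alternatives the adjusted p was 0.992 to 1.0. The mean differences were -0.66 ± 0.54 in CA1 and 0.6 ± 0.54 in CA3.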

How the results depend on the processing

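For values of single probe sets under an alternative, 1153 kept direction and side of the threshold, 54 changed direction, 25 were no longer past the threshold and 27 newly past it; the cause was not tested. Between the fields, 0 member probe sets were called in place of 1 with no intensity trend, with averaged probe sets and without control 1 of both fields, and 0 to 1 with an array left out. For control number the 2 became 0 with no intensity trend or averaged probe sets, 1 without possibly cross-hybridising probe sets, and 0 to 6 with an array left out, where the calls over all probe sets ran from 86 to 2046 in place of 464. Removal of possibly cross-hybridising probe sets took out 1387306_a_at, the only tested Egr2 probe set, so Egr2 was not tested there. Changes of direction between the fields were Ier2 at 0.08 with quantile normalisation, 0.02 without control 1 and 0.09 without control 3 of both fields, and Fos at 0.25 without control 1. Without control 3 of both fields, the CA1 lesion effect was 0.13 for Fos, 0.06 for Egr2 and 0.2 for Egr4, and the mean effect 0.71 for Fosb, 0.2 for Arc, 0.16 for Nr4a1 and 0.24 for Ier2. Without control 1 of both fields, the CA3 effect was -0.51 for Fosb and 0.05 for Junb, and the mean effect 0.03 for Arc. With probe sets averaged, the CA3 effect was 0.36 for Egr2, the difference between lesion effects 0.29 for Fos, 1.07 for Egr2 and 0.31 for Egr4 (median of the 10 genes 0.69 in place of -0.36), control 3 minus 1 was -0.24 for Egr4 and control 3 minus 2 was 0.09 for Nr4a3.

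With an array left out, the field difference ran from -0.57 to 0.22 for Fos, -0.75 to 0.52 for Egr2 and -0.33 to 0.33 for Ier2. The CA1 lesion effect ran from -0.38 to 0.13 for Fos, -1.04 to 0.06 for Egr2, -0.64 to 0.2 for Egr4 and -0.14 to 0.52 for Ier2. The CA3 effect ran from -0.65 to 1.9 for Fosb and -0.25 to 0.05 for Junb. The mean effect ran from -0.79 to 0.48 for Fosb, -0.2 to 0.12 for Arc and -0.21 to 0.12 for Ier2, and the difference between effects from -1.13 to 0.14 for Egr2. Control 3 minus 1 ran from -0.2 to 0.53 for Junb, -0.2 to 0.07 for Nr4a3 and -0.12 to 1.15 for its other probe set, whose control 3 minus 2 ran from -0.26 to 1.01. Leaving out a lesion array gave no value for the effect that needs it.

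With the replicate number as a block, 1 member probe set passed for the CA1 lesion effect (Junb, -2.56, limma adjusted p = 0.0138) and 1 for the CA3 effect (Egr4, -3.37, 0.0203), and Fos was at 0.17 and Fosb at 0.23 in CA1, and Fosb at 0.82, Nr4a1 at 0.18 and Ier2 at 0.14 in the mean. Over all probe sets the block gave 358 calls in place of 98 between the fields, 258 in place of 0 for CA1, 310 in place of 0 for CA3 and 697 in place of 0 for the mean. Deviations of same-numbered controls correlated at 0.155, 0.0601 and 0.306, each the highest for its array. This is a hint from the data and not the design. The arrays share only a number in the labels, which for both lesion arrays is 1. Over all probe sets, no intensity trend gave 0 calls in place of 98 and in place of 464 for control number, and leaving out control 3 of both fields gave 182 for the mean lesion effect in place of 0.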
